A study of Homo sapiens with 6 samples.

Results

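The inner centromere CENP genes described here are CENPA, CENPB, CENPC, CENPH, CENPI, CENPK, CENPL, CENPM, CENPN and CENPU. Members were every probe set on the array whose platform annotation gives 1 symbol equal to one of these names. This gave 24 probe sets for the 10 genes, of 49395 probe sets and 18244 named genes in all. Expression was measured on Affymetrix arrays in the human lung adenocarcinoma cell line A549. The cells carried a lentiviral short hairpin RNA against MRPL35 (shMRPL35, group KD, 3 arrays) or a lentiviral control hairpin (shctrl, group NC, 3 arrays). The product of MRPL35 is part of the mitochondrial ribosome (its large subunit), and the study asks what its loss does to division and death of lung cancer cells. All 6 samples are of 1 cell line grown in RPMI-1640 with serum, the hairpin sequence and the time after infection are not given in the sources used here, and no second hairpin is labelled. For NC replicates 2 and 3 the source name holds a different cell line number from the characteristics, which give A549, and both were used as A549. Whether separate cultures lie behind the arrays is not stated in the labels, so the tests rest on array-to-array spread alone, which may be technical.

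Centromeres are marked by nucleosomes in which the histone variant CENP-A takes the place of canonical histone H3. On this chromatin sits the constitutive centromere-associated network (CCAN), a set of CENP proteins that stays at the centromere through the cell cycle and on which the microtubule-binding outer kinetochore is built in mitosis. CENP-N with its partner CENP-L, and CENP-C, bind the CENP-A nucleosome, CENP-H, CENP-I, CENP-K and CENP-M form a further subcomplex, and CENP-U belongs to a subcomplex with CENP-O, CENP-P, CENP-Q and CENP-R. CENP-B stands apart, as a DNA-binding protein that recognises a sequence in alpha-satellite repeats. Many of these genes are transcribed more in proliferating than in resting cells.

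The target itself was lower in every KD array. MRPL35 values were 6.49, 6.44 and 6.56 for KD replicates 1 to 3 on the brightest probe set, against 8.16, 8.05 and 8.36 in NC replicates 1 to 3 (log2 values), which leaves 30.9% of the NC signal (limma adjusted p = 3.77e-06). Arrays correlated at 0.996 to 0.997 within KD, 0.993 to 0.997 within NC and 0.976 to 0.980 between the groups (Pearson's r across probe sets, which are not independent replicates). Precision is limited by having 3 arrays a group. The 3' control probe set of ACTB stood above the 5' one by 0.63 ± 0.044 log2 units in the KD arrays and by 0.58 ± 0.082 in the NC arrays (SD, n = 3 each), a measure of RNA integrity. For GAPDH the same difference was 0.0862 ± 0.0355 in the KD arrays and 0.0119 ± 0.0499 in the NC arrays. The part of RNA integrity in the results was not tested. Of the 5 epithelial markers 3 were higher and 0 lower. CDH1, the adhesion protein E-cadherin, averaged 9.86 in KD and 8.56 in NC, a change of 1.31 ± 0.12 (limma adjusted p = 3.96e-05). The keratin KRT18 averaged 13.90 in KD and 13.40 in NC (change 0.50), and KRT8 13.45 in KD and 13.00 in NC (change 0.44). The summed level of the list, to which the bright keratins contribute most, (log2 of summed linear values) spanned 15.08 to 15.11 over KD arrays and 14.64 to 14.71 over NC arrays. The 12 markers of fibroblasts, endothelium and leukocytes measured had gene means between 2.47 and 6.01 in KD and between 2.57 and 5.43 in NC (log2), with 1 lower (PDGFRA, -0.37), 1 higher (CD14, 0.60) and 10 not passing the test. The summed level of the fibroblast list spanned 6.22 to 6.35 over KD arrays and 6.37 to 6.70 over NC arrays. For endothelium it spanned 7.05 to 7.15 over KD arrays and 7.04 to 7.25 over NC arrays, and for leukocytes 6.52 to 6.60 over KD arrays and 6.04 to 6.38 over NC arrays. Their part in the results was not tested.

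All 10 genes fell in the knockdown cells, by between 1.46-fold (CENPL) and 6.67-fold (CENPH) on their brightest probe sets. CENPA, CENPK and CENPU, which are the centromeric histone and members of separate CCAN subcomplexes, kept 24.6%, 24.5% and 26.3% of the NC signal. The median change of the genes was -1.38 on the log2 scale, a 2.61-fold lower level, and 7 of the 10 were at least 2-fold lower. That count depends on the processing. CENPM (-1.02) changed by -0.968 without NC replicate 3 and by -0.9987 without KD replicate 3. CENPI changed by -0.976 when its probe sets were averaged. For comparison, 15.9% of the 18244 genes were lower at an adjusted p under 0.05, 3.09% were also at least 2-fold lower, and the median change of all genes was -0.018. At the level of single probe sets 24 of 24 were lower at an adjusted p under 0.05, against 14.1% of all 49293 probe sets. Changes are log2 KD minus NC with the standard error of a limma fit over all genes, p-values are adjusted by Benjamini-Hochberg over all genes, and the adjusted p of the 10 genes lay between 1.42e-06 and 0.00751. In RNA from whole cultures, fewer cells that express these genes and less RNA per cell cannot be told apart.

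**Figure D1:**
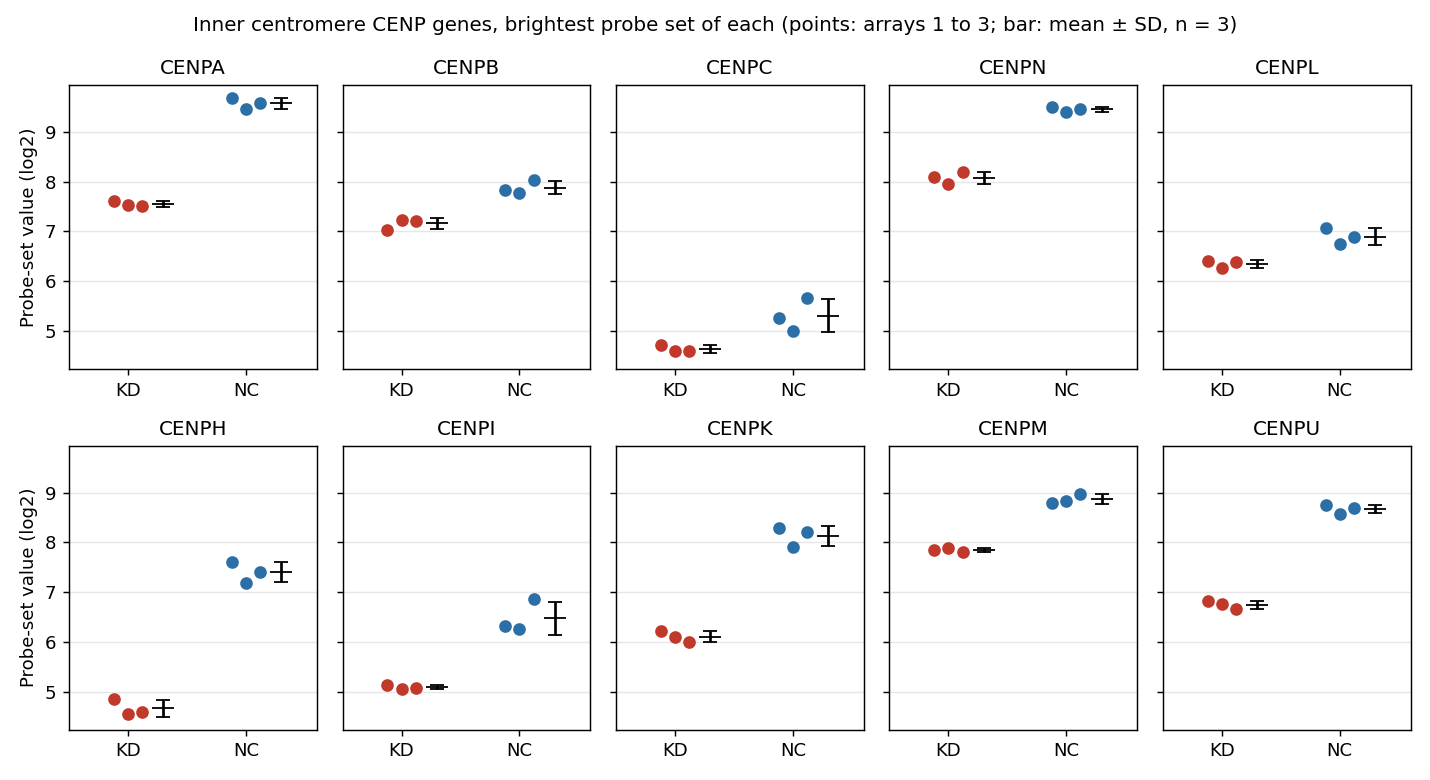
Log2 probe-set values of the brightest probe set of each gene in KD (red) and NC (blue) arrays, with points for replicates 1 to 3 from left to right and a bar for the mean ± SD (n = 3). In every panel the 3 KD arrays lie below the 3 NC arrays, with the widest gap for CENPH and the narrowest for CENPC.

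The upstream sequences of genes that moved together are shown because cell cycle genes often carry short shared elements there. Of the 10 genes 7 had an entry in the RefSeq promoter table of GRCh38.p14, which spans 250 bases before to 50 after the annotated start, and CENPH, CENPL and CENPM did not. Windows were searched on both strands for the cell cycle genes homology region (CHR, TTTGAA), the CCAAT box (CCAAT) and an E2F site (TTTCCCGC, TTTCGCGC, TTTGCCGC or TTTGGCGC). These are elements known as binding sites of the MuvB core of the DREAM complex, of NF-Y and of E2F factors. The windows printed are those of CENPA, CENPK and CENPU, whose signal fell about 4-fold, of CENPN, which holds a CHR next to a CCAAT box, and of CENPB, which fell 1.64-fold. This choice used the changes and the matches, so the printed windows cannot show whether matches go with changes. CENPA lies at chr2:26785806-26786105 (plus strand), CENPK at chr5:65563119-65563418 (minus strand), CENPU at chr4:184734047-184734346 (minus strand), CENPN at chr16:81006964-81007263 (plus strand) and CENPB at chr20:3786691-3786990 (minus strand). Each is given 5′ to 3′ in the direction of the gene, in lower case, and capitals mark the matches on either strand.
CENPA: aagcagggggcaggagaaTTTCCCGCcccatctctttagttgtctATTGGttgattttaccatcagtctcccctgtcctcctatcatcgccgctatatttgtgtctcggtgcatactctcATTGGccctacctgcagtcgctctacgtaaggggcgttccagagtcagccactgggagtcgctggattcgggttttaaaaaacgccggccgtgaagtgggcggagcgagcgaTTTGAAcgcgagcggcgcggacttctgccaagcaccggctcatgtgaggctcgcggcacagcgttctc
CENPK: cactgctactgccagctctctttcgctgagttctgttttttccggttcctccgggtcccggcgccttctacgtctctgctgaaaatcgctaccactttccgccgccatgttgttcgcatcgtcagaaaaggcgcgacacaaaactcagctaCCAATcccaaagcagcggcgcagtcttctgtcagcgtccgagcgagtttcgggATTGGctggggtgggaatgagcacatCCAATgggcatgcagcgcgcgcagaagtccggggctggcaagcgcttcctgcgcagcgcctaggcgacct
CENPU: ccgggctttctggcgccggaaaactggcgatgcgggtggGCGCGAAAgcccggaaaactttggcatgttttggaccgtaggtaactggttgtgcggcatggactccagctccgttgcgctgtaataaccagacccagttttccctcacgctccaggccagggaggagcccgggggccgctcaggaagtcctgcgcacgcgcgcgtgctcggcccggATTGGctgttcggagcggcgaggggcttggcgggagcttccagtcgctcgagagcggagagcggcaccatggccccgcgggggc
CENPN: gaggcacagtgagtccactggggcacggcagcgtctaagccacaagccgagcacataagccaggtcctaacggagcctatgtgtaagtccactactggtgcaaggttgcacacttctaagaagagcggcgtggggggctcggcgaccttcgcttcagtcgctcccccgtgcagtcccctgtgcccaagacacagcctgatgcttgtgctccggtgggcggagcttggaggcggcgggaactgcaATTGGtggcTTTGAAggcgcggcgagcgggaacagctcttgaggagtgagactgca
CENPB: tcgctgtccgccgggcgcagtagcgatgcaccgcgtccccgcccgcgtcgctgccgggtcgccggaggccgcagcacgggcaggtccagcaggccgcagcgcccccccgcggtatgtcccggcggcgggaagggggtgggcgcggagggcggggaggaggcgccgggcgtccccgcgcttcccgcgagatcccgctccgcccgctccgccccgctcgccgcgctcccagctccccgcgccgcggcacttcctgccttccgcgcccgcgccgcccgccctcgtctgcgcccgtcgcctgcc

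The CENPA window held an E2F site that begins 232 bases before the start, CCAAT boxes in antisense orientation at 205 and 130 bases before it, and a CHR at 18 bases before it. CENPK held 3 CCAAT boxes, at 99, 46 and 20 bases before the start. CENPU held an antisense E2F site at 211 and an antisense CCAAT box at 34 bases before the start, and CENPN an antisense CCAAT box at 6 bases before and a CHR from base 4 of the transcript. Of the windows not printed, CENPC (change -0.67) held a CHR and 2 CCAAT boxes, and CENPI (change -1.38) none of these letters. Whether matches go with the size of the fall was not tested. None were found in CENPB either. Over the 7 genes 3 windows held a CHR, 5 a CCAAT box and 2 an E2F site, against 15.4%, 35.7% and 3.33% of 27305 promoter windows of the same length. The searched elements do not overlap one another in these windows. The GC content was 82.0% in CENPB and 37.7% in CENPI, with a median of 58.3% over all windows. A match is a description of letters and not evidence of a bound factor, and no match says only that these letters are not in this window.

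**Figure D2:**
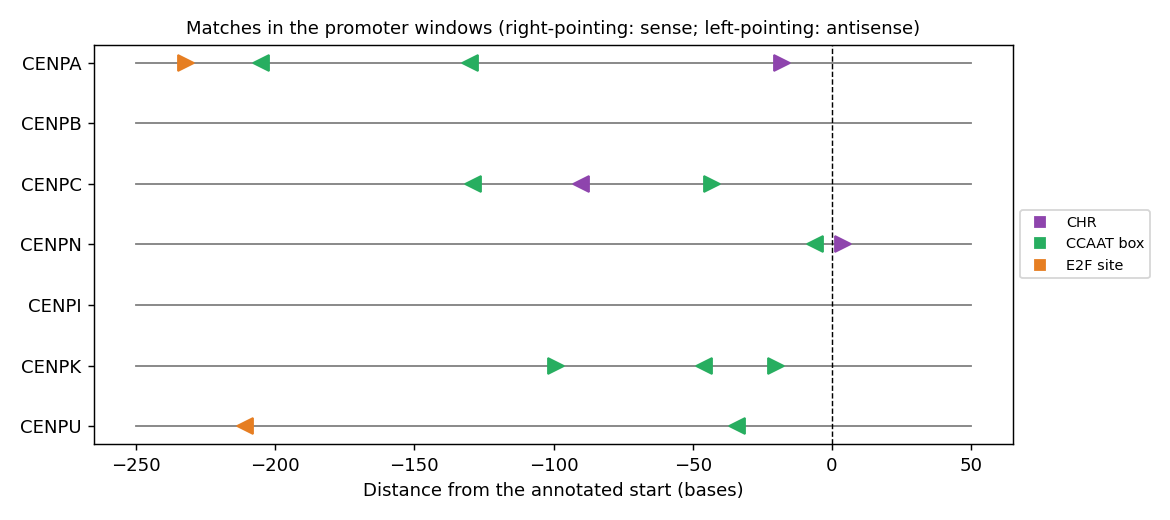
Positions of the CHR, CCAAT box and E2F matches in the 7 promoter windows, by distance of the first matched base from the annotated start (x axis, bases), with right-pointing marks for sense and left-pointing marks for antisense matches. CENPA carries all 3 kinds, and CENPB and CENPI carry none.

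CENPA is the histone variant that marks the centromere. Values were 7.61, 7.52 and 7.50 in KD, against 9.67, 9.45 and 9.59 in NC. The groups were 1.84 log2 units apart at their closest, and the gene fell by 2.02 ± 0.086 (log2 ± standard error; limma adjusted p = 1.42e-06), or 4.07-fold. The 4 probe sets of CENPA changed by -2.09, -2.02, -2.02 and -1.99 on the log2 scale, a span of 0.096.

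CENPB is the alpha-satellite binding protein that is outside the CCAN. On the brightest probe sets it changed about as much as the CCAN genes CENPC (-0.67) and CENPL (-0.55). It read 7.04, 7.23 and 7.21 in KD, against 7.82, 7.78 and 8.02 in NC, a change of -0.72 ± 0.096 (limma adjusted p = 0.000443). Its other probe set, which by its x suffix can hybridise to further transcripts, changed by -1.09. The groups of both probe sets did not overlap.

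CENPC, which links the CENP-A nucleosome to the outer kinetochore, was the dimmest member, and the only 1 below the 40th percentile of gene means (5.41). It read 4.72, 4.60 and 4.59 in KD, against 5.27, 5.00 and 5.65 in NC. The KD arrays lay close together and the NC arrays were spread, with replicate 3 highest. The change was -0.67 ± 0.15 (limma adjusted p = 0.00751) on a probe set with an s suffix, and -0.48 on the other.

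CENPN and CENPL, the pair that contacts the CENP-A nucleosome together, fell by unequal amounts. CENPN read 8.08, 7.95 and 8.19 in KD, against 9.50, 9.40 and 9.46 in NC, and fell by 1.38 ± 0.088 (limma adjusted p = 7.11e-06). CENPL read 6.40, 6.26 and 6.38 in KD, against 7.07, 6.74 and 6.88 in NC, and fell by 0.55 ± 0.10 (limma adjusted p = 0.00258). This was the smallest change of the 10 genes on their brightest probe sets. The 6 probe sets of CENPN ranged from -1.79 to -0.47, and the smallest of these changes was in the dimmest, which read 4.14, 4.45 and 4.16 in KD and 4.86, 4.77 and 4.54 in NC. That probe set alone among the 6 lost its call when single arrays were left out, with a limma adjusted p of 0.0589 for KD replicate 1 left out, 0.0626 for KD replicate 3 and 0.0565 for NC replicate 1. The 2 probe sets of CENPL changed by -0.63 and -0.55, and both have an x suffix.

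The CENP-H, CENP-I, CENP-K and CENP-M subcomplex held the widest range of changes. CENPH read 4.85, 4.54 and 4.59 in KD, against 7.60, 7.19 and 7.41 in NC. It fell by 2.74 ± 0.13 (limma adjusted p = 1.66e-06), which leaves 15.0% of the NC signal, and 5 of the 18244 genes fell by this much or more, CENPH included. This rests on 1 probe set with an x suffix. CENPK read 6.23, 6.09 and 6.00 in KD, against 8.29, 7.91 and 8.20 in NC, and fell by 2.03 ± 0.11 (limma adjusted p = 3.71e-06), on 1 probe set as well. In both genes the lowest NC array was replicate 2, which still lay 2.34 (CENPH) and 1.68 (CENPK) log2 units above the highest KD array.

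CENPI and CENPM fell by smaller amounts. CENPI read 5.13, 5.05 and 5.08 in KD, against 6.31, 6.25 and 6.86 in NC, with a change of -1.38 ± 0.15 (limma adjusted p = 0.000122). Its other probe sets changed by -1.02 and -0.53, the second of which read at most 3.80 in KD and 4.27 in NC. CENPM, a small protein related in fold to GTPases, read 7.85, 7.89 and 7.80 in KD, against 8.79, 8.83 and 8.98 in NC, with a change of -1.02 ± 0.082 (limma adjusted p = 2.39e-05).

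CENPU read 6.81, 6.76 and 6.65 in KD, against 8.74, 8.58 and 8.70 in NC. It fell by 1.93 ± 0.085 (limma adjusted p = 1.56e-06), or 3.81-fold. Its second and dimmer probe set changed by -1.43. CENP-U docks the mitotic kinase PLK1 at the kinetochore.

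**Figure D3:**
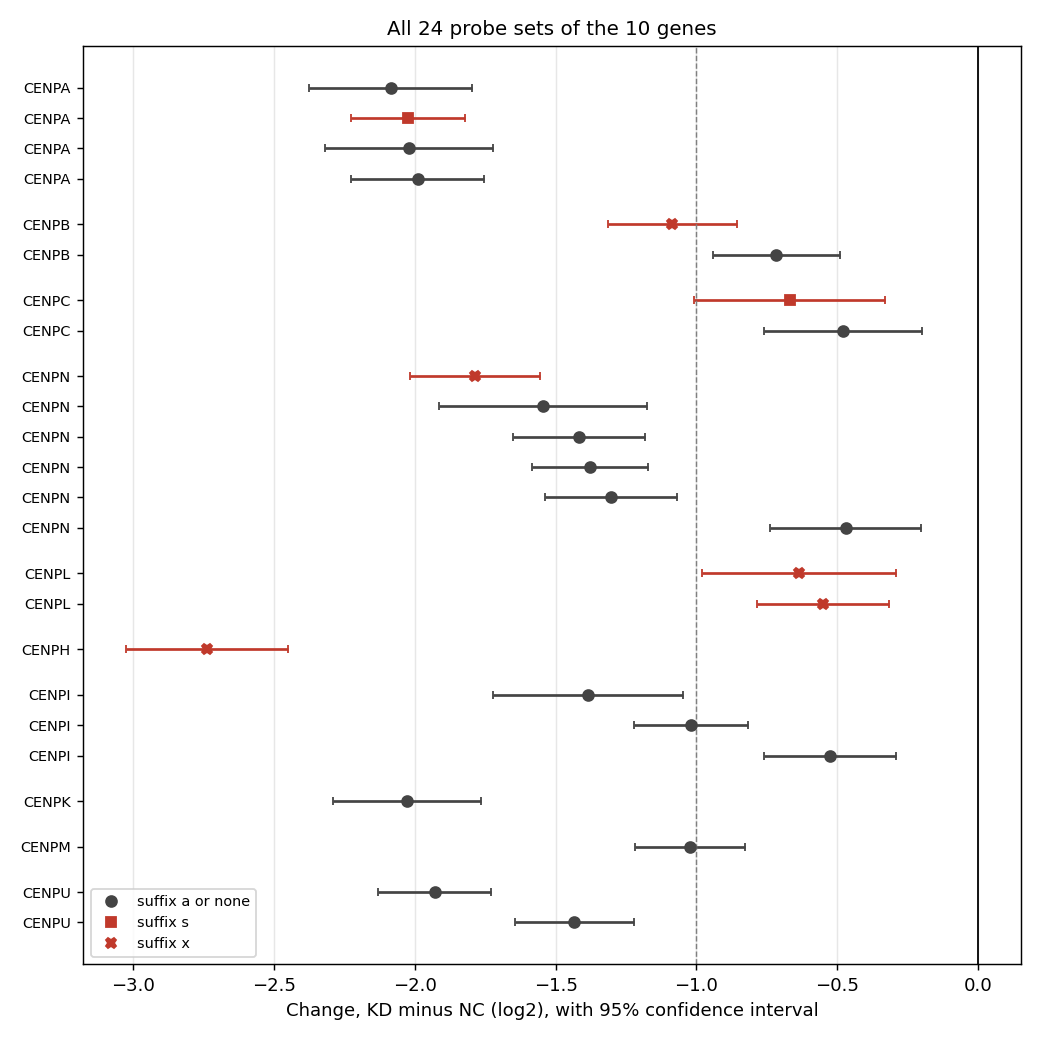
Change of each of the 24 probe sets (x axis, log2 KD minus NC, with its 95% confidence interval from limma), grouped by gene in order of role, with squares and crosses for probe sets whose suffix marks possible cross-hybridisation. All intervals lie below 0, the 4 probe sets of CENPA coincide, and those of CENPI and CENPN spread over 0.86 and 1.32 log2 units.

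How far the order of the genes is set by the probe sets can be read from the genes with several. The span between a gene's own probe sets was at most 0.50 in CENPA, CENPB, CENPC, CENPL and CENPU, 0.86 in CENPI and 1.32 in CENPN. Brightest probe sets placed the genes in the order CENPH, CENPK, CENPA, CENPU, CENPI, CENPN, CENPM, CENPB, CENPC and CENPL, from the largest fall to the smallest. Of the 9 neighbouring pairs, the change of CENPK minus that of CENPA was -0.0035 ± 0.063 (log2 ± standard error), and that of CENPI minus CENPN -0.0060 ± 0.20. The change of CENPB minus that of CENPC was -0.047 ± 0.16, and that of CENPC minus CENPL -0.12 ± 0.19. In these pairs the difference was under 2 standard errors. The largest step was that of CENPH minus CENPK, at -0.71 ± 0.060. An exact two-sided permutation test over 3 KD and 3 NC arrays cannot go below p = 0.10, so no pair could pass at 0.05. After adjustment over the 9 pairs the lowest adjusted p was 0.18 (exact), and the test cannot decide the order. When all probe sets of a gene were averaged, the order changed. CENPI (-0.98) then came after CENPM (-1.02), CENPC (-0.57) after CENPL (-0.59), and CENPK (-2.027) just after CENPA (-2.030).

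All 24 probe sets had every KD array below every NC array, a separation that 20.0% of all probe sets and 21.5% of all genes showed. Within NC, replicate 2 had the lowest value in 9 of the 10 genes, with a median deviation of -0.14 from the NC mean, while the median over all genes deviated by 0.0070. In KD the median deviation of the members was 0.060 in replicate 1, -0.028 in replicate 2 and -0.045 in replicate 3. Without NC replicate 2, and without any other single array, all 10 genes remained called lower.

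The rest of the network and the genes around it were counted from lists of named genes. Among the 8 other CCAN genes, 7 were called lower and 0 higher, and the median was -0.81 (all genes: 15.9% lower, 17.6% higher). ITGB3BP, which encodes CENP-R, fell by 1.88 ± 0.096 (limma adjusted p = 2.35e-06), and CENPQ, of the same subcomplex, by 1.36 ± 0.11 (adjusted p = 2.47e-05). CENPW, a histone-fold protein, fell by 1.20 ± 0.098 (limma adjusted p = 2.51e-05). CENPT, the histone-fold partner of CENP-W that also binds the outer kinetochore, read 6.23, 6.43 and 6.29 in KD and 6.01, 6.48 and 5.96 in NC, a change of 0.17 ± 0.14 that did not pass (limma adjusted p = 0.439). Of the 5 CENPT probe sets 1 was called lower (-0.31, limma adjusted p = 0.0435 over all probe sets) and 4 were not called. Only the brightest changed by more than 0, and the other ones not called changed by -0.40, -0.20 and -0.0755. The probe sets of CENPT thus disagree.

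Genes that place CENP-A at centromeres also moved. Among 5 deposition genes, 4 were called lower and 0 higher, and the median was -0.57. HJURP, the chaperone of CENP-A, fell by 1.80 ± 0.098 (limma adjusted p = 3.15e-06), and OIP5, also known as MIS18B, by 1.57 ± 0.099 (adjusted p = 6.78e-06). MIS18A fell by 0.57 ± 0.094 (limma adjusted p = 0.00151). The histone chaperone RBBP4 changed by 0.24 ± 0.10 on its brightest probe set without passing (limma adjusted p = 0.105), while its other probe set fell by 0.89 (adjusted p = 8.90e-05 over all probe sets), so that no direction is given for this gene.

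Among 13 outer kinetochore genes, 12 were called lower and 0 higher, and the median was -1.71. SKA1, a microtubule-binding protein, fell by 2.45 ± 0.11 (limma adjusted p = 1.72e-06), SPC24 by 2.29 ± 0.13 (adjusted p = 3.42e-06) and NDC80 by 2.22 ± 0.16 (adjusted p = 1.21e-05). These are changes of the brightest probe sets. The probe sets of SPC24 ranged from -2.29 to -0.77, and the other one of SKA1 changed by -1.61. MIS12 changed by -0.30 ± 0.11 and did not pass (limma adjusted p = 0.0545), but was called lower under 5 of the alternatives. NSL1, which is among the 12 at -0.30 ± 0.094 (limma adjusted p = 0.0347), lost its call under 5. The kinesin CENPE (-1.78 ± 0.073), CENPF (-1.73 ± 0.077) and CENPV (-0.74 ± 0.081), which carry CENP names but are not among the CCAN genes, all fell (limma adjusted p between 1.32e-06 and 0.000137), and CENPJ was not analysed here. The H3.3 gene H3-3B read 12.70, 12.72 and 12.75 in KD and 12.51, 12.55 and 12.46 in NC, a change of 0.21 that did not pass (limma adjusted p = 0.0554). The single H3-3A probe set read at most 2.26 in KD and 2.41 in NC and changed by -0.15 (limma adjusted p = 0.160). Its values lie near the lowest on these arrays (2.05), so they say little about H3-3A. Whether the inner centromere genes fell more or less than any of these lists was not tested.

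**Figure D4:**
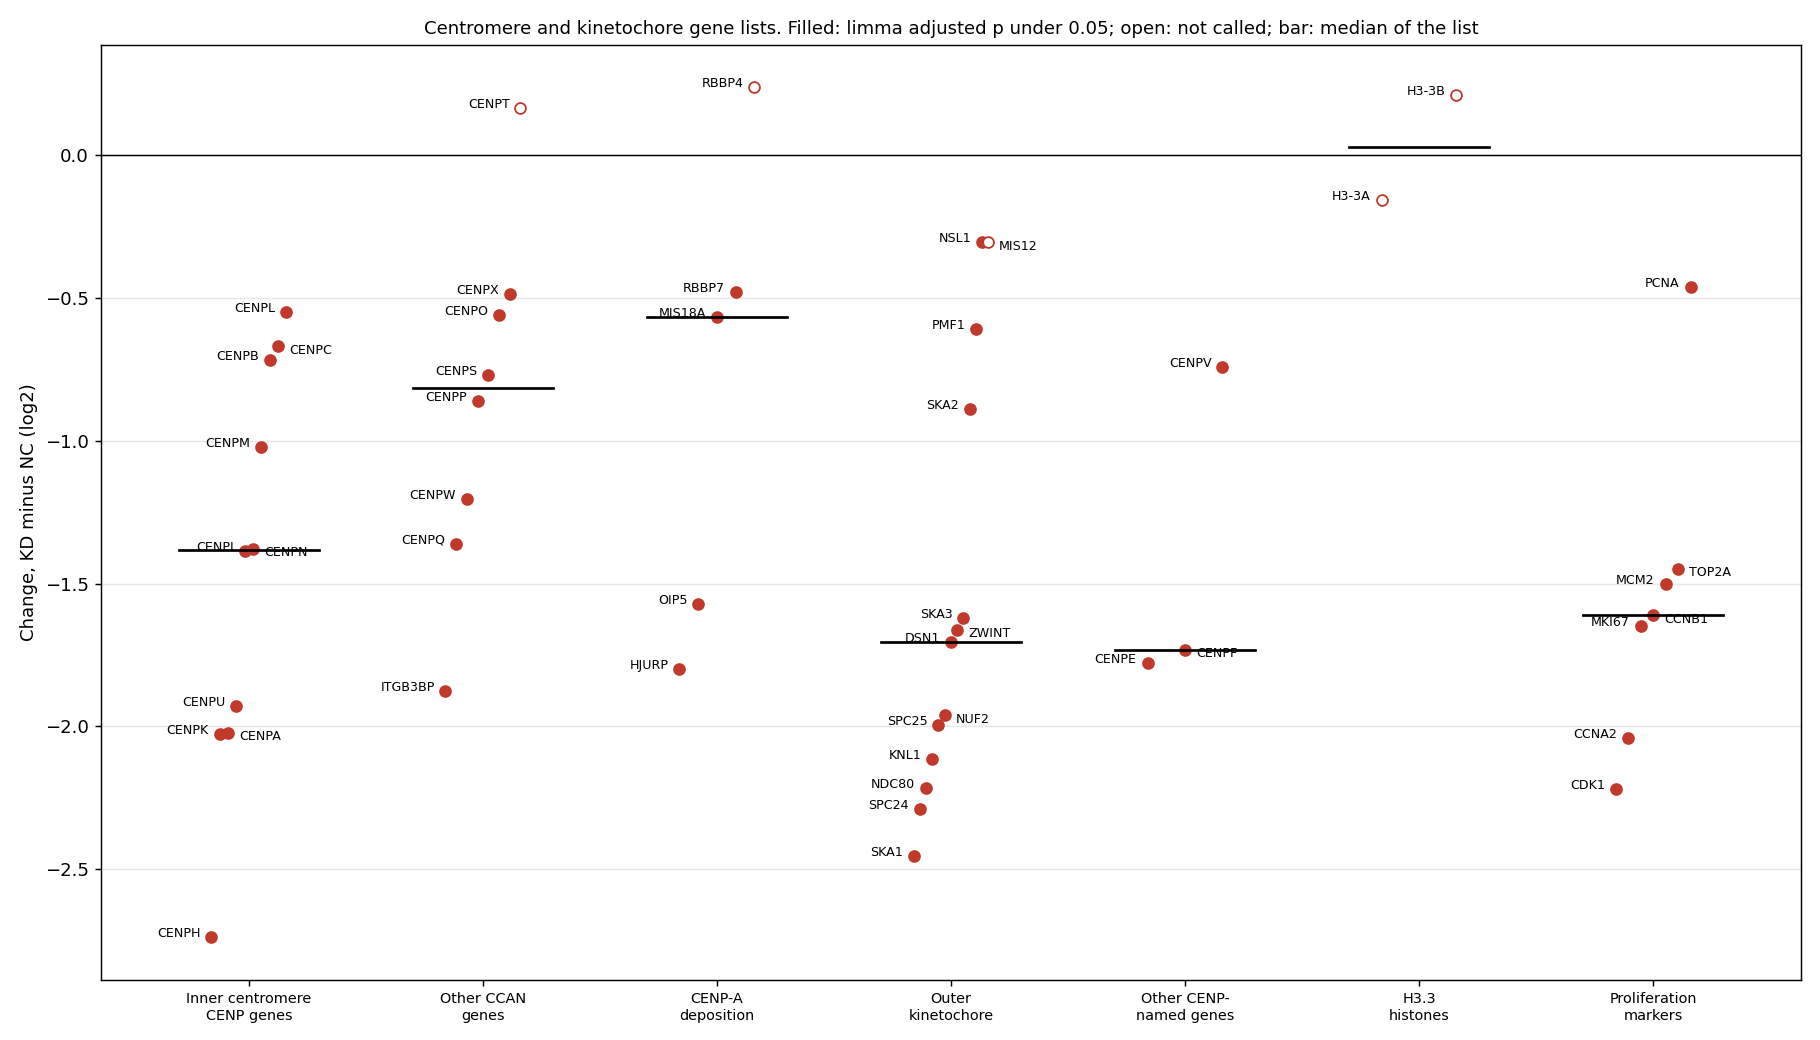
Change of each gene (y axis, log2 KD minus NC) by list, with filled points for a limma adjusted p under 0.05, open points for genes not called and a bar for the median of the list. The medians are -1.38 for the inner centromere CENP genes, -0.81 for the other CCAN genes, -1.71 for the outer kinetochore and -1.61 for proliferation markers.

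Markers of proliferation moved with these genes. On their brightest probe sets all 7 measured fell, with a median of -1.61 and a range from -2.22, in the mitotic kinase CDK1, to -0.46. CCNA2, a cyclin of S phase and mitosis, fell by 2.04 ± 0.092 (limma adjusted p = 1.60e-06), and MKI67 by 1.65 ± 0.078 (adjusted p = 1.89e-06). The probe sets of MKI67 ranged from -2.93 to -1.65, the brightest having the smallest fall. Those of CDK1 ranged from -2.22 to -0.54, the last in its dimmest. The summed level of the 7 markers spanned 12.23 to 12.27 over KD arrays and 13.28 to 13.43 over NC arrays, and that of the 10 centromere genes 10.17 to 10.22 over KD arrays and 11.57 to 11.73 over NC arrays, both as the log2 of summed linear values. The part of a lower proliferating share in the fall of the centromere genes was not tested. The profiles closest to the median profile of the 10 genes over the 6 arrays, each relative to the gene's own NC mean, were those of FANCI (root mean square distance 0.033 log2 units), MYEOV (0.039), UBAP2 (0.045), GEMIN6 (0.047) and TIPIN (0.047). FANCI acts in DNA crosslink repair and TIPIN at replication forks.

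Of the 7 genes with a promoter entry, 3 had a gene on the opposite strand whose start lay within 1000 bases. PPWD1, 128 bases from CENPK, read 7.31, 7.23 and 7.22 in KD and 7.25, 7.26 and 7.38 in NC, a change of -0.041 ± 0.079 that did not pass (limma adjusted p = 0.759), beside -2.03 ± 0.11 in CENPK. CMC2, 329 bases from CENPN and needed for cytochrome oxidase assembly, read 9.48, 9.56 and 9.51 in KD and 9.87, 9.68 and 9.89 in NC, a change of -0.29 ± 0.086 (adjusted p = 0.0273), beside -1.38 ± 0.088 in CENPN. CDC25B, the phosphatase that activates mitotic CDK1 and lies 211 bases from CENPB, read 11.01, 11.10 and 10.97 in KD and 10.57, 10.66 and 10.91 in NC, a change of 0.31 ± 0.10 (limma adjusted p = 0.0413), beside -0.72 ± 0.096 in CENPB. The calls of CMC2 and CDC25B were each lost when any of 5 single arrays was left out, with adjusted p of up to 0.0927 for CMC2 and 0.139 for CDC25B, and that of CDC25B also with arrays centred on their median (adjusted p = 0.0563). Differences between the genes of a pair were not tested.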

How the data were processed

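Per the labels' protocols, RNA was isolated with Trizol, and cRNA carrying biotin was hybridised to Affymetrix arrays. The deposited values were used as log2 probe-set values; the authors' summarisation, normalization and log base are not given in the sources used here, and the base was inferred from their range (2.05 to 14.3, array medians 5.49 to 5.55). Names came from GEO's platform annotation, and 102 control probe sets were left out of all tests. Each gene was represented by its single-symbol probe set with the highest mean over the 6 arrays. KD and NC were compared with limma 3.58.1 (lmFit, then eBayes, in R 4.3.3; two-sided tests) with group as the only term, over 18244 genes and, separately, over 49293 probe sets, with Benjamini-Hochberg adjustment and a threshold of 0.05. No filter on dim features was applied.

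Members and gene lists were chosen with earlier results of these data known, so the counts are no independent evidence. Named genes were all members, MRPL35, up to 3 called genes of each list with the largest changes, all promoter partners and the 5 nearest profiles; genes that did not pass or whose probe sets disagree were named after their values were seen. The fit was tested on simulated data with independent noise of the spread that the fit itself estimated. Far fewer genes were changed there than were called in the real data (2903 lower and 3207 higher). It recovered 42 of 67 genes given a change of 0.5 log2 units, 67 of 67 at 1 and 66 of 66 at 2. Among 18044 unchanged genes 11 were called. Because of these settings the recovery and the false calls do not carry over to the real data. Figures were drawn with matplotlib 3.10.9. Alternatives tried were array weights, a replicate block, centring of arrays on their median, quantile normalization, a trended and robust eBayes step, averaging all probe sets per gene, omission of x and s suffixes, omission of features under the 40th percentile, and omission of each array.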

Additional observations from a re-analysis of the deposited data

How the results depend on the processing

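All 137 gene-level values of the 10 centromere genes under the 14 alternatives were lower and called. These cover 10 genes in each, except that 8 of 8 remained without x and s suffixes, where CENPH and CENPL have no probe set, and 9 of 9 without features under the 40th percentile, where CENPC drops out. Of 302 probe-set values 298 stayed called. The exceptions were the dim CENPN probe set and, without KD replicate 1, a CENPC probe set (-0.46, limma adjusted p = 0.0565). Deviations of same-numbered arrays correlated at 0.26, 0.24 and -0.10, and those of differently numbered arrays at between -0.34 and 0.22. Whether the replicate numbers mark pairs cannot be told from these values. With the replicate number as a block, 10 genes and 24 probe sets were called lower, and 3014 of all genes lower and 3262 higher.

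Values turned for genes with discordant or small changes. Averaged over all their probe sets, CENPT read -0.16 and RBBP4 -0.33, and without x and s suffixes RBBP4 read -0.89. PPWD1 ranged from -0.070 to 0.0012 when single arrays were left out, and was above 0 only without NC replicate 3. The count of higher genes, 0 in the fit as reported, was 1 among the other CCAN genes (CENPT) with array weights and between 0 and 1 over single arrays left out. It was 1 among the deposition genes with trend and robust fitting, and 1 among the H3.3 genes with quantile normalization, with trend and robust fitting, with array weights or without dim features, and between 0 and 1 over single arrays left out. In the CCAN and H3.3 lists the array whose omission gave the 1 was NC replicate 2. The count of lower outer kinetochore genes ran from 11 to 13 over single arrays left out. MIS12 had an adjusted p between 0.00644 and 0.0285 in the settings that called it, with 0.00731 without NC replicate 2, and NSL1 between 0.0574 and 0.14 in those that did not. The causes were not tested. Background per probe set was not measured, so its part in the smaller falls of dim probe sets was not tested, and 6 arrays limit the precision.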
